A study of Poecilia reticulata with 6 samples.

Results

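The guppy (Poecilia reticulata) is a euryhaline fish, and its intestine was sequenced here in fresh water, brackish water and water of seawater strength. The question addressed is whether brackish water at 18‰ was a step on the way from 0‰ to 35‰, or a state in which some genes stood off both extremes. The 2 libraries at 18‰ were compared with the 4 libraries at 0‰ and 35‰ (2 each), out of 6 libraries in all. A gene was called a peak gene where both 18‰ libraries had a higher TPM (transcript abundance scaled to a fixed total per library) than all 4 others, and a dip gene where both had a lower one. Of 10389 genes in the table, 7897 reached a TPM of 1 in at least 2 libraries and were tested. Among these, 939 were peak genes, 405 were dip genes and 6553 had overlapping values.

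All fish were adult wild-type guppies kept at 28°C with 14 h of light and 10 h of dark. Salt was raised in the tanks by 3‰ every 2 days up to 35‰, over 24 days, so salinity and time of exposure cannot be told apart, and neither can tank and salinity. The labels give the 3 treatments in percent salt, whereas the design text gives the same values in ‰. The sources used here do not give the number of fish or tanks behind a library, so p-values measure only the spread between these libraries, which may be technical.

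The intestinal epithelium digests and absorbs nutrients through the brush border, a carpet of microvilli that carries hydrolases on its surface and solute carriers in its membrane. In teleosts in salt water the gut also takes up the water that the fish drinks, by absorbing salt and secreting bicarbonate. A medium more dilute than fish blood dilutes the body fluids, and a more concentrated one dehydrates them. The sources used here give no osmolality for the brackish water or for the blood. The brackish water is therefore not taken to be near the osmolality of the blood.

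The table covered part of each library, with TPM sums of 419412 to 481864, and TPM keeps no record of depth, so the depth behind each value is unknown. Markers of absorptive cells of the anterior and middle gut summed to between 32948 and 90819 TPM in the 6 libraries. RNA of markers of the labelled tissue was thus abundant in all of them, though its level varied between libraries. Across genes, the median absolute log2 difference between the libraries of a salinity was 0.32 at 0‰, 0.21 at 18‰ and 0.35 at 35‰. Some libraries stood apart for single gene groups. The 11 liver markers summed to 1734 TPM in 0‰ replicate 2 and to between 6.88 and 43.9 TPM in the others. The 6 markers of exocrine pancreas, which lies along the gut, summed to 11143 and 5377 TPM at 0‰, 6095 and 2880 at 18‰, and 10.7 and 96.8 at 35‰. The sulfate carrier gene slc13a1 was at 2307 TPM in 0‰ replicate 1 and at 6.24 to 19.4 TPM elsewhere.

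Peak genes made up 11.9% of the genes tested and dip genes 5.13%. Of all genes off both extremes, 69.9% were thus peaks, but this split depended on the scaling between libraries. After median-ratio scaling there were 678 peak and 660 dip genes, of which 668 and 400 were also peak or dip genes in the TPM as deposited. The median over all genes of the log2 difference between 18‰ and the average of the extremes was 0.07 as deposited and close to 0 after that scaling. The same non-overlap rule applied to the other salinities gave 384 genes (4.86%) with both 0‰ libraries above and 617 (7.81%) with both below the other 4, and 836 (10.6%) and 1121 (14.2%) for 35‰. By this count, in TPM as deposited, 18‰ had more genes above the other salinities than 0‰ or 35‰, and 35‰ had the most genes off the rest in both directions together.

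Most of these departures were small. The gap between the nearest 18‰ library and the nearest other library had a median of 1.104-fold for peak genes and 1.091-fold for dip genes on the TPM + 1 scale. It was above 1.5-fold in 42 peak and 21 dip genes, and above 2-fold in 9 and 4. At the edge of the rule, klf8 was counted as a peak gene with 13.80 and 15.17 TPM at 18‰ against 13.79 TPM in 0‰ replicate 1, while slc6a4a, at 7.09 TPM both in 18‰ replicate 1 and in 35‰ replicate 2, was not. On the dip side mmd was just inside, with 35.09 TPM in 18‰ replicate 1 against 35.14 TPM in 0‰ replicate 1, and atm was just outside at 7.94 TPM in both.

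The steps on either side of a peak were unequal. The median log2 difference of peak genes was 0.44 from 0‰ to 18‰ and 0.60 between 18‰ and 35‰, and in 643 of the 939 the step on the seawater side was the larger. Both steps exceeded 1.5-fold in 235 peak genes, only the 0‰ side in 79, only the 35‰ side in 250 and neither in 375. For dip genes the medians were −0.40 and −0.49, and both steps exceeded 1.5-fold in 83 genes. The comparisons of 18‰ with 0‰ and with 35‰ share the 18‰ libraries, so their values are given side by side and not related to each other.

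**Figure D1:**
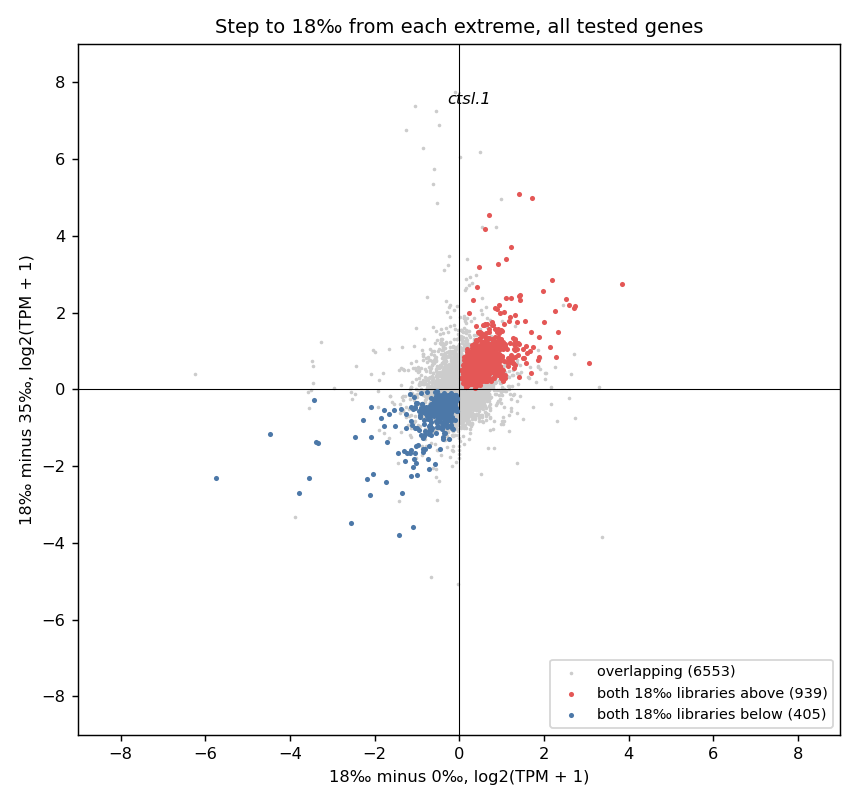
Log2 difference in TPM + 1 between 18‰ and 0‰ (horizontal axis) and between 18‰ and 35‰ (vertical axis), 1 point for each of 7897 genes, with 939 peak genes in red, 405 dip genes in blue and 6553 overlapping genes in grey. Peak and dip genes sit in the upper right and lower left corners by construction, most of them close to the centre, and ctsl.1 lies high on the vertical axis.

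The distance of the 18‰ mean from the average of the 0‰ and 35‰ means was tested with limma over all genes, calling a gene at an adjusted p under 0.05 and a fold above 1.5. Log2 differences from the extremes are distances from this average, so they can be large for a gene that lies between the extremes. With 2 libraries against 4, the exact two-sided permutation test of a gene, as computed here, had a smallest possible p of 0.133. This floor depends on how the 2 sides are counted. Only 1 gene was called (0.0127%), and it was neither a peak nor a dip. This gene, ctsl.1, encodes a cathepsin L, a lysosomal cysteine protease. Its TPM was 1284 and 828 at 0‰, 698 and 714 at 18‰, and 3.33 and 4.02 at 35‰. Its level at 18‰ was thus close to that at 0‰ and far above that at 35‰. The log2 difference from the extremes was 3.35 (SE 0.23, adjusted p = 0.0140), with a step of −0.55 (SE 0.27) from 0‰ and of 7.24 (SE 0.27) against 35‰. The call was lost without either 18‰ library (adjusted p = 0.120 without replicate 1 and 0.187 without replicate 2) and without 35‰ replicate 1 (0.147).

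At an unadjusted p under 0.05, 501 genes (6.34%) were higher at 18‰ than the average of the extremes and 180 (2.28%) were lower. Among them were 385 of the 939 peak genes, 138 of the 405 dip genes and 158 overlapping genes. The lowest adjusted p was 0.127 among peak genes and 0.0527 among dip genes. The peak and dip genes below are therefore given by their values, and none of them passed the test of distance from the average of the extremes. Gene lists were chosen by symbol and are described by the share of their members that were peaks or dips, beside the 11.9% and 5.13% of all genes. With 1 library left out, the shares of all genes rose too. Peaks were 18.7% without 0‰ replicate 1, 16.9% without 0‰ replicate 2 and 22.0% without 18‰ replicate 1. They were 22.2% without 18‰ replicate 2, 14.1% without 35‰ replicate 1 and 18.0% without 35‰ replicate 2. Dips, in the same order, were 10.1%, 8.38%, 13.6%, 10.8%, 8.32% and 6.53%. After median-ratio scaling, peaks were 8.59% and dips 8.36% of all genes. List counts under each setting belong beside these.

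Genes of the brush border surface were among the clearest peaks. The apical mucin gene muc13b, which codes for a transmembrane mucin of epithelia, had 547 and 685 TPM at 0‰, 1835 and 2106.5 TPM at 18‰, and 584 and 828 TPM at 35‰. Both brackish libraries thus lay more than 2-fold above every other library, with a gap of 2.21-fold and a log2 difference of 1.59 (SE 0.23, adjusted p = 0.154). For dpep1, a membrane dipeptidase, the values were 887 and 981 TPM at 0‰, 2124 and 2241 at 18‰, and 207 and 854 at 35‰. Here the 35‰ libraries were far apart, and the log2 difference of 1.80 had an SE of 0.51.

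Of the 19 brush border hydrolase genes tested, 12 (63.2%) were peaks and none was a dip, against 11.9% and 5.13% of all genes. Their median log2 difference from the extremes was 0.69, against 0.07 over all genes, and their summed TPM was 4326 and 6167 at 0‰, 8635 and 10271 at 18‰, and 4559 and 7074 at 35‰. With any 1 library left out, which makes the rule easier to meet, 12 to 14 of them were peaks, and after median-ratio scaling 10 were. Bulk tissue does not separate more cells of a type from more RNA per cell. The summed markers of absorptive cells of the anterior and middle gut were highest at 35‰. Their 10 genes summed to 32948 and 67500 TPM at 0‰, 52078 and 55636 at 18‰, and 90819 and 71053 at 35‰. Of these 10, 2 were peaks and 1 a dip, and the median log2 difference was −0.14. The part of cell numbers in the hydrolase values was not tested. Lactase-phlorizin hydrolase (LCT), which splits milk sugar in mammals, was at 16.8 and 26.6 TPM at 0‰, 62.9 and 67.4 at 18‰, and 27.1 and 31.8 at 35‰. The peptidase gene anpepb, coding for an aminopeptidase N, was the most abundant of the 12, with 1391 and 1745 TPM, then 2555 and 3233, then 878 and 1865. The peptidyl dipeptidase gene ace had 63.6 and 54.2 TPM, then 110 and 231, then 19.3 and 40.7. The meprin genes mep1a.1, mep1a.2 and MEP1B, the alkaline phosphatase gene alpi.2, the aminopeptidase P gene xpnpep2 and the glutamyltransferase genes ggt1b and GGT7 were also among the 12. Reads of the neighbouring copies mep1a.1 and mep1a.2 may have been shared, so their separate values are uncertain. The remaining 7 hydrolases overlapped, among them enpep, a glutamyl aminopeptidase, at 583 and 795 TPM at 18‰ against 677 TPM in 35‰ replicate 2.

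**Figure D2:**
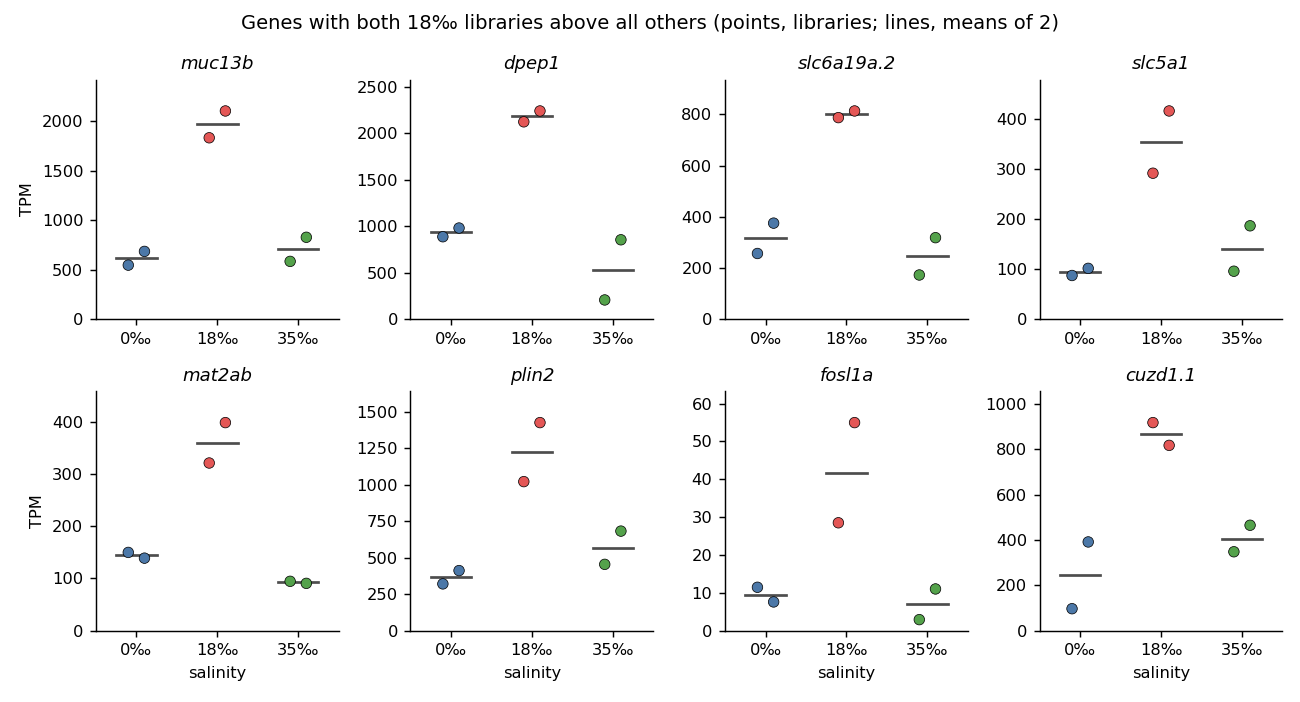
TPM of 8 peak genes in each library (points) at 0‰, 18‰ and 35‰, with the mean of 2 libraries as a line and linear axes from 0. In every panel both 18‰ points lie above the other 4, as for muc13b with 1835 and 2106.5 TPM against at most 828, and the 18‰ points differ most from each other in fosl1a.

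Among solute carriers as a whole, 31 of 197 were peaks (15.7%) and 6 were dips (3.05%), beside 11.9% and 5.13% of all genes. Of 30 amino acid and peptide carriers, 9 (30%) were peaks and none a dip, with a median log2 difference of 0.55. With 1 library left out the peak count was between 9 and 14, the highest without 0‰ replicate 1, and after median-ratio scaling it was 7. The neutral amino acid carrier slc6a19a.2 was at 257 and 375 TPM at 0‰, 788 and 814 at 18‰, and 173 and 319 at 35‰. Its log2 difference was 1.57 (SE 0.30, adjusted p = 0.252), and its gap of 2.10-fold was the largest of the list. The proton-coupled peptide carrier slc15a1b had 446 and 773 TPM, then 1444 and 1306, then 759 and 871, a log2 difference of 0.99 (SE 0.26). The glutamine carrier slc1a5 had 8.14 and 7.67 TPM at 0‰, 16.1 and 13.6 at 18‰, and 1.79 and 3.67 at 35‰. For slc7a9, the light subunit of the cystine and dibasic amino acid exchanger, the values were 6.63 and 6.30 TPM, then 26.3 and 26.2, then 10.5 and 21.1, so that 1 seawater library came close to the brackish ones. The other peaks were slc6a18, slc16a10, slc43a1a, slc1a4 and SLC7A1. The related gene SLC6A19 overlapped, with 7.90 and 15.3 TPM at 18‰ against 15.5 and 14.4 at 0‰.

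Of 16 sugar carriers, 2 (12.5%) were peaks, or 5 without 0‰ replicate 1, 18‰ replicate 1 or 18‰ replicate 2. The larger was slc5a1, the sodium-coupled glucose carrier of the brush border, with 87.2 and 101 TPM at 0‰, 291 and 416 at 18‰, and 95.7 and 186 at 35‰. The log2 difference of slc5a1 was 1.63 (SE 0.31, adjusted p = 0.252). Of 11 monocarboxylate and nucleoside carriers, 4 (36.4%) were peaks, and 8 without 18‰ replicate 1, led by slc16a9a at 148 and 235 TPM, then 401 and 511, then 167 and 234. Metal and phosphate carriers gave 4 peaks and 1 dip among 23, or 7 peaks and 5 dips without 18‰ replicate 1 and 7 peaks and 1 dip without 18‰ replicate 2, the phosphate carrier slc20a1b being at 36.3 and 55.3 TPM, then 89.4 and 117, then 49.4 and 70.2. The dip was tfr1b, a transferrin receptor, at 4.74 and 5.70 TPM at 18‰ against 5.81 to 16.3 TPM in the other libraries.

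Ion, bicarbonate and proton transport genes gave 11 peaks (22.4%) and no dip among 49, with a median log2 difference of 0.19. After median-ratio scaling there were 9 peaks and 1 dip. Among the 11, kcnj2a and slc4a11 passed the filter through the 18‰ libraries alone and were thus peaks by construction. Without 18‰ replicate 1 there were 22 peaks (44.9%) and 4 dips (8.16%), beside 22.0% and 13.6% of all genes. Without any other library there were 11 to 15 peaks and at most 2 dips. The basolateral sodium bicarbonate cotransporter gene slc4a4a was at 26.04 and 27.9 TPM at 0‰, 43.02 and 50.8 at 18‰, and 21.3 and 35.3 at 35‰. The apical anion exchanger gene slc26a6, which secretes bicarbonate in the gut of marine fish, was at 49.7 and 69.5 TPM, then 87.8 and 123, then 70.6 and 71.7. Log2 differences were 0.76 (SE 0.25) for slc4a4a and 0.68 (SE 0.23) for slc26a6. The anoctamin gene ano9a was lower overall but stood further off, with 1.37 and 2.66 TPM, then 8.04 and 6.0, then 0.64 and 0.54 (log2 difference 1.88, SE 0.26, adjusted p = 0.154). Not every salt carrier had this form. The sodium-potassium-chloride cotransporter gene slc12a1 was at 13.0 and 10.1 TPM at 0‰, 27.2 and 35.5 at 18‰ and 191 and 74.8 at 35‰, and so was in order of salinity. Aquaporins were split, with 1 peak and 1 dip among 7. The water channel gene aqp1a.1 was at 13.8 and 8.48 TPM, then 65.2 and 48.7, then 22.5 and 42.7, with 1 seawater library near the brackish ones. Organic osmolyte and cell volume genes held 1 peak among 17, but 7 without 18‰ replicate 1 and 6 without 35‰ replicate 2.

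**Figure D3:**
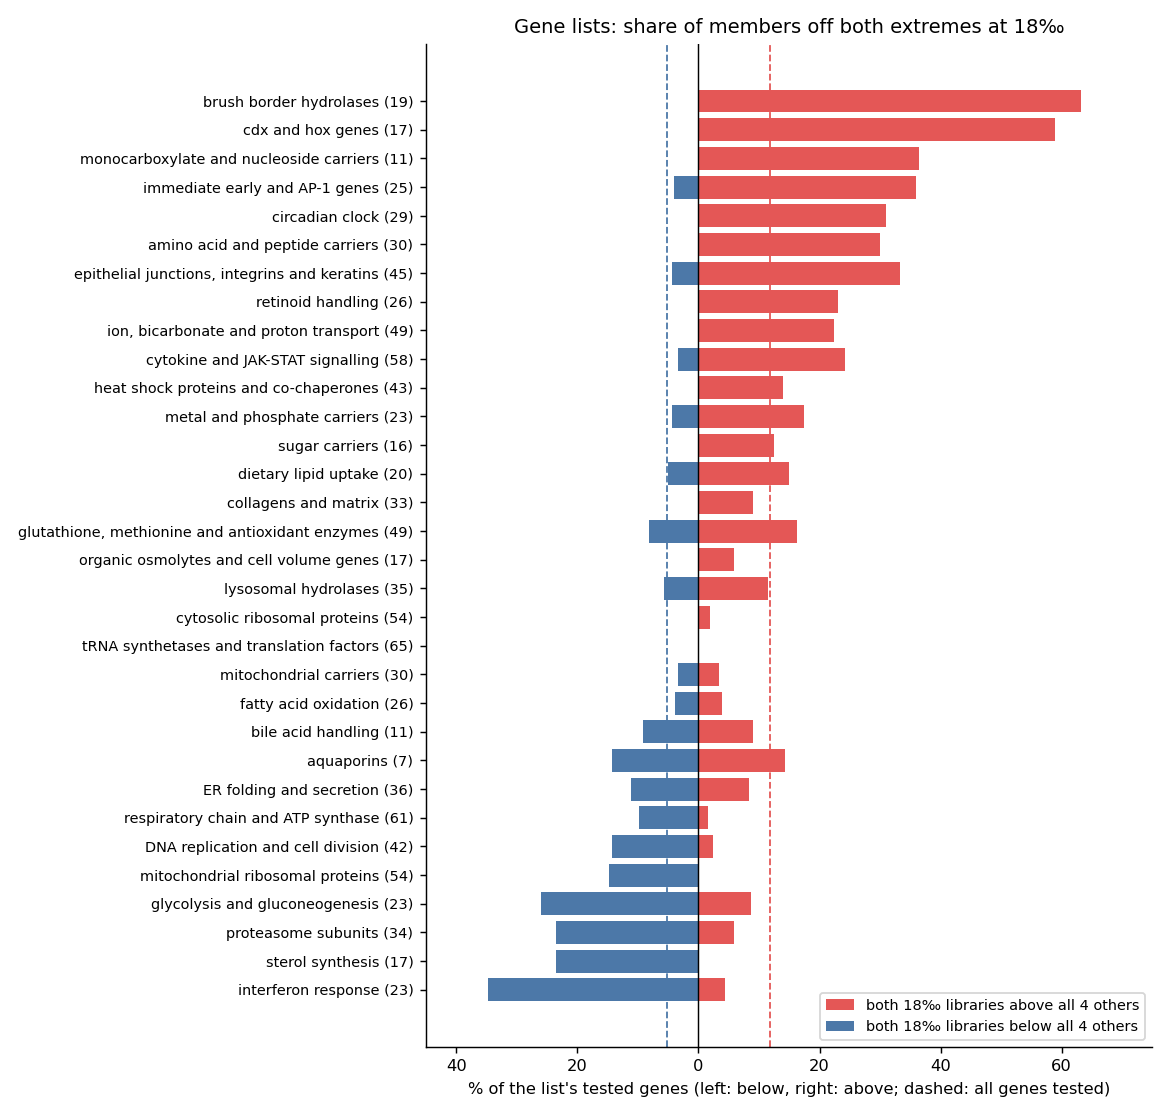
Share of the tested genes of 32 lists that were peaks (red, to the right) or dips (blue, to the left), in percent of the list, with the number tested in brackets and dashed lines at the 11.9% and 5.13% of all genes. Brush border hydrolases (63.2%) and cdx and hox genes (58.8%) have the highest peak shares. Interferon response genes (34.8%) have the highest dip share in TPM as deposited.

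Of 25 immediate early and AP-1 genes, 9 (36%) were peaks and 1 was a dip, with a median log2 difference of 0.49. The peak count was 10 to 13 with 1 library left out and 8 after median-ratio scaling. The AP-1 gene fosl1a was at 11.5 and 7.62 TPM at 0‰, 28.5 and 55.0 at 18‰, and 2.95 and 11.1 at 35‰. Its gap of 2.36-fold was the largest among peak genes with a mean TPM of at least 5 and a symbol that is not a clone name. The brackish libraries of fosl1a also stood well apart from each other. The orphan nuclear receptor gene NR4A1 was at 0.88 and 1.03 TPM, then 10.8 and 13.0, then 1.13 and 3.05 (log2 difference 2.42, SE 0.30, adjusted p = 0.127). For junbb, another AP-1 subunit, the TPM was 42.3 and 41.5, then 137 and 136, then 99.6 and 102, so the 35‰ level lay between the others. The growth arrest gene gadd45ga had 8.23 and 8.90 TPM, then 28.1 and 31.0, then 15.9 and 12.6, while GADD45B was the dip, at 0.24 and 0.16 TPM at 18‰ against 1.05 to 2.36 elsewhere. The phosphatase gene dusp14 was at 1.44 and 1.5 TPM at 18‰ and listed at 0 in the other 4 libraries. It passed the filter through the 18‰ libraries alone and was thus a peak by construction. Early genes not in this group, such as fosab at 50.3 and 115 TPM at 18‰ and 96.3 and 103 at 35‰, overlapped.

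Heat shock proteins and co-chaperones were close to all genes, with a median log2 difference of 0.05 and 6 peaks (14.0%) among 43, 2 after median-ratio scaling and 7 to 12 with 1 library left out, the most without 35‰ replicate 1. A pair of Hsp70-type chaperone genes with the symbol HSPA2 led them. The gene ENSPREG00000011442 was at 14.9 and 25.6 TPM at 0‰, 106 and 127 at 18‰, and 47.3 and 9.89 at 35‰. Its partner ENSPREG00000011267 was at 10.4 and 27.6 TPM, then 81.0 and 143, then 49.1 and 10.2. Their levels were similar in each library, and reads may have been shared between them. Of the abundant chaperones, hsp90ab1 was a peak by a narrow margin, at 2438 and 2369 TPM against 1593 to 2103 in the others.

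Of 45 genes of junctions, integrins and keratins, 15 (33.3%) were peaks and 2 dips, with 13 and 2 after median-ratio scaling, 15 to 22 peaks with 1 library left out, and a median log2 difference of 0.34. The epithelial integrin gene itgb6 was at 17.7 and 21.5 TPM at 0‰, 38.4 and 37.7 at 18‰, and 11.3 and 15.4 at 35‰ (log2 difference 1.20, SE 0.21, adjusted p = 0.228). The envoplakin gene evplb was at 11.2 and 9.56 TPM, then 22.2 and 16.7, then 8.05 and 10.6. Tight junction and adhesion genes oclna, tjp3, cldn12 and epcam were peaks as well. In contrast the claudin gene cldn15b was listed at 0 in both 18‰ libraries, with 5.18 and 21.1 TPM at 0‰ and 5.35 and 2.88 at 35‰.

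Clock genes were off both extremes in 9 of 29 cases (31.0%), all peaks. Clock genes cycle daily, and the hour of sampling is not stated in the sources used here. The repressor gene cry1a was at 8.11 and 10.3 TPM, then 17.6 and 19.1, then 11.8 and 11.7, and the output regulator nfil3-6 at 32.8 and 27.1, then 61.2 and 92.1, then 23.8 and 39.99. The nuclear receptor gene rorca had 7.63 and 10.0 TPM at 0‰, 16.9 and 20.8 at 18‰, and 5.78 and 9.19 at 35‰. For bhlhe41, a repressor of clock transcription, TPM was 26.1 and 20.8, then 30.2 and 43.04, then 9.77 and 10.97. By contrast per1b (29.6 and 41.4 TPM at 18‰, 53.4 and 49.2 at 35‰), per2 and nr1d1 overlapped. The peak count of the clock list was 8 after median-ratio scaling and 17 without 18‰ replicate 1, against 9 to 13 without any other library.

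Of 26 genes of retinoid handling, 6 (23.1%) were peaks and none a dip. They included genes for both storage and breakdown. The retinoic acid hydroxylase gene cyp26b1 was at 1.52 and 1.61 TPM at 0‰, 6.28 and 5.36 at 18‰, and 0.49 and 0.06 at 35‰ (log2 difference 1.92, SE 0.24, adjusted p = 0.127). The retinol esterification gene lratb.1 was listed at 0 and at 2.87 TPM at 0‰, with 9.01 and 5.23 at 18‰ and 1.37 and 1.34 at 35‰. The retinoic acid receptor gene RARB was at 1.20 and 1.04 TPM at 18‰ and at most at 0.72 elsewhere. RARB and dhrs3b passed the filter through the 18‰ libraries alone and were thus peaks by construction. With 1 library left out there were 6 to 10 peaks and 0 to 6 dips, both highest without 18‰ replicate 1, and 3 dips without 0‰ replicate 1.

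Cytokine and JAK-STAT signalling genes gave 14 peaks (24.1%) and 2 dips among 58, with a median log2 difference of 0.33. Among the 14, il12ba and cxcr2 passed the filter through the 18‰ libraries alone and were thus peaks by construction. The signal transducer gene stat3 was at 10.2 and 9.50 TPM, then 21.2 and 17.6, then 11.7 and 14.3. The adaptor gene traf4a was at 2.00 and 2.68 TPM, then 8.25 and 7.44, then 1.80 and 4.41, and the kinase genes jak1 and jak2a were peaks too. With 1 library left out the count was 15 to 23, 22 or 23 without 0‰ replicate 1, 18‰ replicate 1 or 35‰ replicate 2, and it was 11 after median-ratio scaling. The 25 leukocyte markers summed to 1523 and 570 TPM at 0‰, 756 and 839 at 18‰, and 587 and 578 at 35‰, with 4 peaks among 24 tested. Only 0‰ replicate 1 was above the brackish libraries, and without it 17 of the 24 were peaks. The part of leukocytes in the signalling values was not tested.

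Homeobox genes that mark position along the gut followed the hydrolases in peak share. Of 17 cdx and hox genes tested, 10 (58.8%) were peaks and none a dip, and all 17 had a log2 difference above 0 (median 0.98). The median was 0.49 against 0‰ and 1.51 against 35‰. All 10 peaks were hox genes and none a cdx gene. Among them hoxc6a, hoxc8a, hoxc9a, hoxc10a, hoxc12a and hoxc13a carry symbols of a single hox cluster. The peak count was 10 to 15 with 1 library left out, highest without 0‰ replicate 1, and 9 after median-ratio scaling. The gene hoxc8a was at 9.54 and 5.61 TPM at 0‰, 17.4 and 18.1 at 18‰, and 1.54 and 10.6 at 35‰. For hoxc13a the values were 16.6 and 4.29 TPM, then 22.6 and 20.4, then 1.92 in 35‰ replicate 2 and listed at 0 in replicate 1. The hox and cdx genes together summed to 161 and 90.4 TPM at 0‰, 187 and 213 at 18‰, and 26.8 and 80.6 at 35‰.

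The summed markers of endocytic absorptive cells of the posterior gut were, like the summed hox and cdx genes, lowest at 35‰, above all in replicate 1. The hox and cdx sum of 35‰ replicate 2 (80.6 TPM) was close to that of 0‰ replicate 2 (90.4 TPM). The 7 genes of this list, ctsl.1 among them, summed to 3774 and 2386 TPM at 0‰, 3465 and 3544 at 18‰, and 342 and 1163 at 35‰. The ileal bile acid carrier gene slc10a2 was at 226 and 176 TPM at 0‰, 706 and 613 at 18‰, and 429 TPM in 35‰ replicate 2 and listed at 0 in replicate 1. The same held for tmigd1, an adhesion gene of the enterocyte, at 319 and 212, then 700 and 679, then 415 TPM and listed at 0. In 35‰ replicate 2 both slc10a2 and tmigd1 were above both 0‰ libraries, so only replicate 1 was low for these genes. With this spread at 35‰, the log2 differences of slc10a2 (3.35) and tmigd1 (3.24) had an SE of 2.04 and 2.03. The part that the sampled length of gut had in the homeobox, hydrolase and carrier values was not tested.

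**Figure D4:**
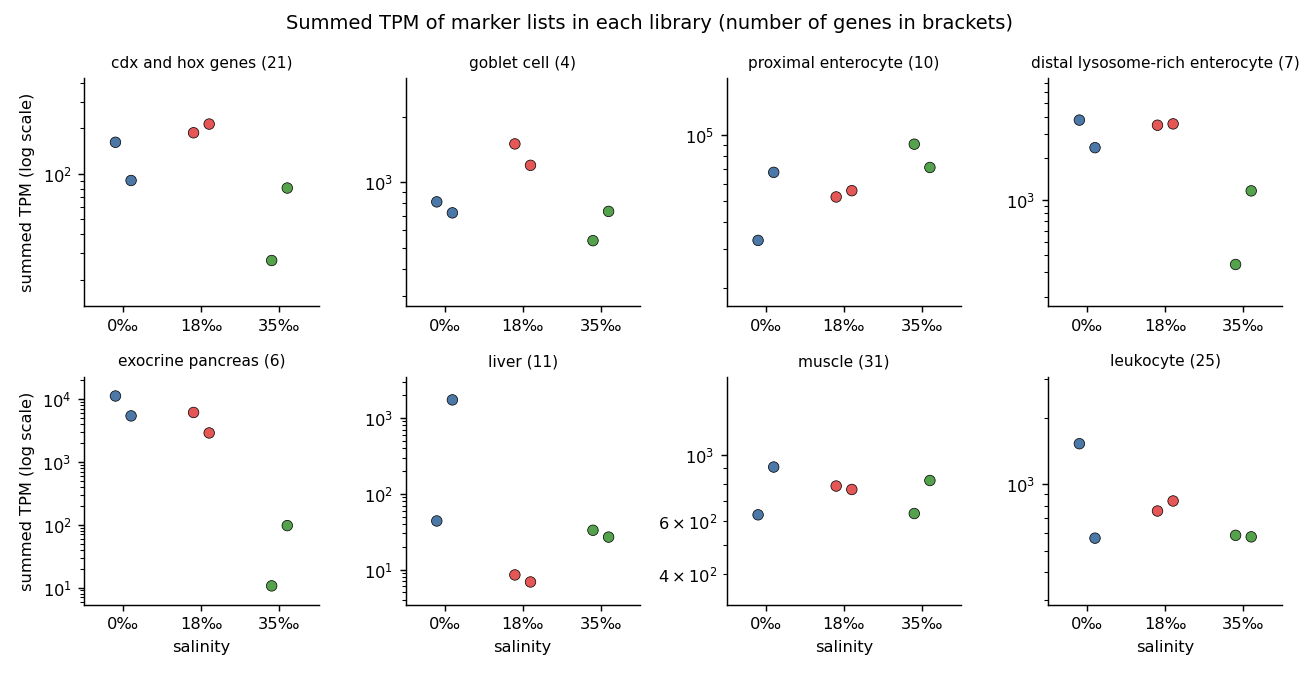
Summed TPM (log axis) of 8 lists of marker and homeobox genes in each library (points) at 0‰, 18‰ and 35‰, with the number of genes in brackets. Goblet cell markers and homeobox genes are highest in both 18‰ libraries, pancreas markers are lowest at 35‰ (10.7 and 96.8 TPM), and liver markers stand out in 1 library at 0‰ (1734 TPM). Most of the goblet cell sum at 18‰ is cuzd1.1, and without it the sum is highest in 0‰ replicate 1.

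Of the 4 goblet cell markers, 3 were peaks, and their sum was 812 and 722 TPM at 0‰, 1499 and 1195 at 18‰, and 538 and 733 at 35‰. The transcription factor gene SPDEF, which drives goblet cell maturation in mice, was at 20.1 and 11.7 TPM, then 28.0 and 25.7, then 5.24 and 11.2. The secretory disulfide isomerase gene agr1 was at 51.4 and 31.5 TPM, then 87.0 and 60.2, then 29.2 and 25.95, while agr2 overlapped, at 466 and 292 TPM at 18‰ against 643 TPM in 0‰ replicate 1. The gene cuzd1.1 was at 97.3 and 392 TPM, then 918 and 817, then 348 and 465. It made up most of the goblet cell sum at 18‰, and without this 1 gene the sum was highest in 0‰ replicate 1, not at 18‰. Of 10 markers of hormone (enteroendocrine) cells tested, 1 was a peak, 1 a dip and 8 overlapped. The peak was ccka (cholecystokinin), at 8.33 and 7.24 TPM at 18‰ against 1.23 to 4.72 elsewhere. The dip was pyyb (peptide YY), at 140 and 55.4 TPM at 18‰ against 169 to 389 elsewhere. The pancreas list gave 1 peak among 6, AMY1C, at 40.8 and 54.5 TPM at 18‰, 24.4 and 34.1 at 0‰, and 0.13 and 2.71 at 35‰.

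Metabolic genes were found on both sides. The enzyme that makes S-adenosylmethionine, the methyl donor, is encoded by several copies. One copy, mat2ab, was at 150 and 139 TPM at 0‰, 321 and 398 at 18‰, and 94.6 and 90.7 at 35‰. The log2 difference from the extremes was 1.62 (SE 0.19, adjusted p = 0.127), with a step of 1.94 (SE 0.22, adjusted p = 0.0228) against 35‰ and of 1.30 (SE 0.22, adjusted p = 0.359) against 0‰. Another, mat2al, was a dip, at 100 and 123 TPM at 18‰ against 127 to 218 in the others, and cbsa, the cystathionine synthase that uses homocysteine, was a dip at 10.3 and 10.4 TPM against 14.1 to 39.7. Their list of glutathione, methionine and antioxidant enzymes had 8 peaks and 4 dips among 49, and 5 and 8 after median-ratio scaling, so the list had no one direction. Without 0‰ replicate 2 it held 13 peaks, and dips numbered 7 to 10 without either library of 0‰ or 18‰. Genes of dietary lipid uptake held 3 peaks (15%) and 1 dip (5%) among 20, beside 11.9% and 5.13% of all genes. The median log2 difference of this list was 0.08. Among its peaks, plin2, which coats lipid droplets, was at 322 and 413 TPM, then 1023 and 1427, then 455 and 683 (log2 difference 1.42, SE 0.26). The dip was dgat2, at 3.36 and 2.76 TPM at 18‰ against 3.82 to 24.3 elsewhere. The gluconeogenic gene pck1 was at 255 and 327 TPM at 0‰, 783 and 2461 at 18‰, and 175 and 634 at 35‰, and the brackish libraries were far apart.

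Dip genes were in part of the same families as peak genes, as for mat2al beside mat2ab and GADD45B beside gadd45ga. Dip genes were fewer than peak genes in TPM as deposited (405 against 939), but nearly as many after median-ratio scaling (660 against 678). The lowest adjusted p of any peak or dip gene was that of edn2, a gene for an endothelin, a vasoactive peptide, which was chosen after its values were seen. It was at 6.49 and 5.54 TPM at 0‰, 0.51 and 0.60 at 18‰, and 7.49 and 6.18 at 35‰. The extremes were thus alike and the brackish libraries far lower, with a log2 difference of −2.25 (SE 0.21, adjusted p = 0.0527). The adjusted p of edn2 ranged from 0.0280 to 0.523 over the alternatives, and it was 0.446 and 0.523 without the 18‰ replicate 1 and 2.

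More abundant was marcksl1b, coding for an actin-regulating substrate of protein kinase C, at 250 and 192.5 TPM at 0‰, 101 and 83.7 at 18‰, and 273 and 307 at 35‰ (log2 difference −1.45, SE 0.21, adjusted p = 0.154). A pair of genes with the symbol cpox, coding for coproporphyrinogen oxidase of haem synthesis, dipped together. ENSPREG00000015546 was at 82.8 and 80.8 TPM, then 34.1 and 32.3, then 181 and 83.6, and ENSPREG00000015580 at 12.1 and 13.2, then 5.27 and 4.82, then 26.4 and 12.5. Their ratio was nearly the same in each library, and reads may have been shared between them. The xenobiotic hydroxylase gene cyp1a was at 18.6 and 38.8 TPM, then 4.20 and 7.78, then 60.7 and 14.7, with the extremes wide apart. The hydroxylase gene hif1an, which restrains hypoxia-inducible factor, was at 30.5 and 26.9 TPM, then 13.6 and 14.1, then 39.5 and 20.9. For adob the values were tighter, at 19.4 and 20.2, then 12.4 and 10.9, then 25.7 and 28.9 (log2 difference −0.94, SE 0.19). The sulfate carrier gene slc13a1 met the dip rule at 6.24 and 7.20 TPM against 11.7 to 2307.

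**Figure D5:**
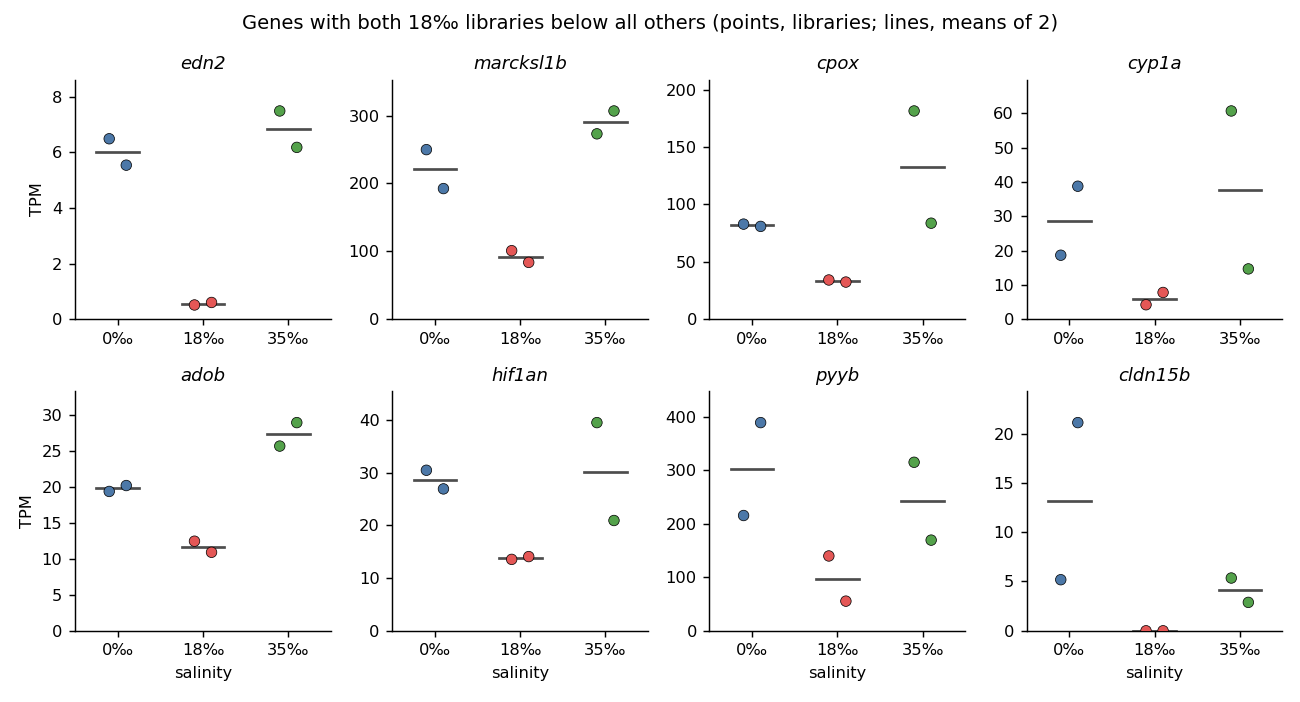
TPM of 8 dip genes in each library (points) at 0‰, 18‰ and 35‰, with the mean of 2 libraries as a line and linear axes from 0. In every panel both 18‰ points lie below the other 4, the extremes being alike for edn2 (5.54 to 7.49 TPM) and wide apart for cyp1a (14.7 to 60.7 TPM).

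Of 17 sterol synthesis genes, 4 (23.5%) were dips and none a peak, with a median log2 difference of −0.76. Among them were sqlea (0.56 and 0.69 TPM at 18‰ against 0.70 to 6.03), fdps and ebp, the sterol isomerase gene, at 47.8 and 41.6 TPM, then 17.7 and 24.3, then 28.8 and 197. The seawater libraries differed widely here, as for hmgcs1 (14.04 and 74.99 TPM) and cyp51 (13.5 and 55.2 TPM), which overlapped. Without 35‰ replicate 1 there were 9 dips, and without 18‰ replicate 2 there were 7. With 35‰ replicate 2 left out the median was −0.33.

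Of 23 genes of glycolysis and gluconeogenesis, 6 (26.1%) were dips and 2 were peaks, with a median log2 difference of −0.24. The lactate dehydrogenase gene ldha was at 15.7 and 19.2 TPM, then 10.5 and 8.70, then 14.7 and 13.7, and the phosphofructokinase gene pfkla at 70.8 and 98.0, then 43.03 and 61.3, then 110 and 106. Dips of the pyruvate kinase gene pklr were narrower, at 51.9 and 48.3 TPM against 55.1 to 78.7. The dip count was 6 to 9 with 1 library left out, highest without 0‰ replicate 2, and 8 after median-ratio scaling. The muscle-type gene pkmb was listed at 0 in both 18‰ libraries and at 0.42 to 5.06 TPM elsewhere. Beside it, 5 of 18 muscle markers were dips and 1 was a peak, with a median log2 difference of −0.03. Among the dips was mylpfa, at 0 and 0.17 TPM against 0.87 to 37.5. Without 18‰ replicate 1 there were 8 dips and 1 peak, and without 18‰ replicate 2 there were 5 of each. The summed TPM of the 31 muscle genes was 786 and 765 at 18‰, within 629 to 909 at the extremes. The part of muscle in the glycolytic values was not tested.

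Most mitochondrial and proteasome genes overlapped, and their dips were narrow. Of 54 mitochondrial ribosomal protein genes, 8 (14.8%) were dips and none a peak, of 61 respiratory chain genes 6 (9.84%) and 1, and of 34 proteasome genes 8 (23.5%) and 2. Median log2 differences were −0.13, −0.23 and −0.19. For the respiratory chain the median was close to 0 against 0‰ and −0.46 against 35‰, so the list as a whole lay below seawater but not below fresh water, while the medians against 0‰ and 35‰ were −0.06 and −0.19 for mitochondrial ribosomal proteins and −0.19 and −0.18 for the proteasome. After median-ratio scaling, where 8.36% of all genes were dips, these lists held 18, 14 and 15 dips. The complex III gene uqcrc2b was at 190 and 190 TPM at 0‰, 166 and 158 at 18‰, and 248 and 300 at 35‰, and the complex I gene ndufs6 at 83.8 and 96.2, then 76.4 and 72.2, then 138 and 122. The proteasome lid gene psmd7 was at 113 and 111 TPM, then 97.6 and 97.2, then 126 and 124, a narrow dip with close replicates. Without any 1 library of 0‰ or 18‰ there were 13 to 17 dips among mitochondrial ribosomal proteins and 10 to 22 in the respiratory chain, the most without 0‰ replicate 2 (17 and 22). The proteasome held 17 without 18‰ replicate 1 and 8 to 12 without any other library. Cytosolic ribosomal proteins gave 1 peak and no dip among 54, and tRNA synthetases and translation factors none of either among 65. These counts also moved with single libraries. Cytosolic ribosomal proteins held 16 dips (29.6%) without 0‰ replicate 2, beside 8.38% of all genes. Without 18‰ replicate 2, tRNA synthetases and translation factors held 9 peaks (13.8%), beside 22.2% of all genes. Without 18‰ replicate 1 they held 10 dips (15.4%), beside 13.6% of all genes.

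In TPM as deposited, interferon response genes had the highest dip share of the pathway lists, 8 of 23 (34.8%). They held 1 peak and had a median log2 difference of −0.30. Gaps were narrow, from 1.002-fold to 1.048-fold, in ifih1, znfx1, cmpk2, usp18 and ifi35. The count was 8 after median-ratio scaling, 3 when each library's values were rescaled to the same sum, and 8 to 10 with 1 library left out. The first rank was lost under both scalings. After median-ratio scaling the proteasome list had 44.1% dips. With equal sums interferon genes had 13.0% dips and glycolysis and gluconeogenesis 34.8%. The ubiquitin ligase gene rnf213b was at 9.04 and 14.7 TPM at 0‰, 3.27 and 3.31 at 18‰, and 5.38 and 5.18 at 35‰ (log2 difference −1.05, SE 0.24, adjusted p = 0.310). For usp18, which removes ISG15 from proteins, TPM was 8.33 and 8.49, then 4.03 and 3.19, then 5.58 and 4.23, so most of the step was on the freshwater side. The regulator irf3 was at 4.18 and 5.47, then 2.42 and 1.76, then 3.82 and 2.82. The median of the list was −0.49 against 0‰ and close to 0 against 35‰.

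Of 42 genes of DNA replication and cell division, 6 (14.3%) were dips and 1 a peak, with a median log2 difference of −0.21 that was 0.02 without 35‰ replicate 2. The replication factor gene gins2 was at 12.4 and 9.26 TPM, then 5.54 and 4.78, then 7.39 and 11.4. The origin recognition genes orc2 and orc4 were dips too, orc4 at 7.21 and 7.29 TPM against 8.5 to 11.2. Without 35‰ replicate 1 the list held 17 dips, and without 18‰ replicate 1 it held 11. Of 8 liver markers tested, 3 were dips (5 without 18‰ replicate 1) and none a peak, and their values at 0‰ were high in 1 library only, as for c9 at 0.57 and 98.1 TPM.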

How the data were processed

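RNA from guppy intestine was sequenced as paired-end reads in 6 libraries, 2 per salinity. The authors aligned the reads with STAR and quantified transcripts with StringTie, and the values deposited are TPM, scaled for transcript length and library size, which were used as deposited. The submitters' processing notes also name DESeq2, which needs read counts and was not used here. The genome build is not given in the sources used here, so no positions are printed. Columns of other samples numbered 0.

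A gene was kept if 2 or more libraries reached a TPM of 1, and log2(TPM + 1) was taken, which understates changes of genes with low TPM. A gene that reached a TPM of 1 only in both 18‰ libraries was a peak by construction and stayed in the peak counts. Examples are dusp14, RARB, dhrs3b, kcnj2a, slc4a11, il12ba and cxcr2. Their number over all genes is not given here, so the peak counts and shares include an unstated part that the filter fixed. Zeros were used as listed, although a 0 may stand for a failed estimate. A limma fit (R 4.3.3, limma 3.58.1) gave each salinity a mean, with a mean-variance trend, and tested the 18‰ mean minus the average of the 0‰ and 35‰ means, with Benjamini-Hochberg adjustment over all 7897 genes. Peak and dip genes were counted in Python 3.11.15 with numpy 2.4.6, pandas 2.3.3 and scipy 1.17.1, and plots were drawn with matplotlib 3.10.9. The fit was also run on simulated normal values, drawn independently for each library. These hold no single outlying libraries such as those described above, so that run cannot show how such libraries affect the calls. The members, gene lists and comparisons were chosen with earlier results of these data known.

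The 42 lists (32 pathways, 10 cell type markers) match symbol patterns, which take in some neighbours by letters alone, such as assembly factors. Named genes are those called, the 15 peak and 15 dip genes with the largest gap and a mean TPM of at least 5, and up to 5 of each per list. Genes with a colon in the symbol, as in clone names, were left out of the ranking by gap. Values of edn2 and of the overlapping genes given as contrast were chosen after they were seen, as were the last members named in some lists. Alternatives covered the pseudocount, filter, trend, scaling, replicate block, pooled extremes, a minimum gap and each library left out. Leaving out libraries for the counts of each list was added after the data were seen. Some single genes are counted in their lists but not reported here by name.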

Additional observations from a re-analysis of the deposited data

How the results depend on the processing

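The test of distance from the average of the extremes called 1 gene, ctsl.1. It called 2 genes (ctsl.1 and edn2) with a pseudocount of 0.1 or without the trend, and between 0 and 26 with 1 library left out, 26 without 0‰ replicate 1, many of them liver genes, and 8 without 35‰ replicate 2. It called 0 without 18‰ replicate 2 (301 genes at an unadjusted p under 0.05) or 35‰ replicate 1 (750). With no filter the gene called was dusp14, and with the extremes pooled it was edn2. Under these settings ctsl.1 was not called, with adjusted p of 0.157 and 0.863. With the replicate number as a block, 0 genes were called (719 at an unadjusted p under 0.05). No source says that the numbers pair the samples, and same-numbered libraries deviated together only weakly (r from −0.04 to 0.06 across genes), so this block does not bear on the size of an effect.

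Peak genes numbered 605 with a mean TPM of at least 5, 42 with a gap of at least 1.5-fold and 1110 to 1757 with 1 library left out. Dip genes numbered 253, 21 and 516 to 1071 under the same settings, and 660 after median-ratio scaling. A rule over fewer libraries is easier to meet by construction. Of 2690 values of named genes under alternatives, 6 lost a call (all ctsl.1), 16 gained 1 and 0 changed sign. Of 420 list medians, 23 moved by more than the spread between libraries, and 25, in 15 lists, took the other sign. TPM without depth limits the reading of genes at a few TPM.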

Other observations

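Peaks were not confined to weak or strong genes. They made up 11.8% of genes with a mean TPM under 5, 11.7% from 5 to 20, 13.0% from 20 to 100 and 9.96% at 100 or more, and dips made up between 4.58% and 5.77% of these classes. The class under 5 holds genes that were peaks by construction, such as dusp14 and RARB. In the gene order of RefSeq (assembly Guppy_female_1.0+MT), 6009 of the genes tested were placed by symbol, 713 of them peak genes and 322 dip genes. Of 1421 neighbours of peak genes, 212 were peaks too (14.9%), beside 11.9% of all genes tested. Of 643 neighbours of dip genes, 18 were dips (2.80%), beside 5.13% of all genes tested. A pair of neighbouring peaks or dips was counted from both sides. The hox genes, which lie in clusters, count among these neighbours, and no test was made of these shares.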
